A study of Caenorhabditis elegans with 2 samples.

Results

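The microRNA genes of the nematode Caenorhabditis elegans that lie outside the developmental timing families were examined for nearby binding of the protein SOMI-1. All genes that the Ensembl annotation classes as microRNA genes were taken, except lin-4, mir-237, mir-48, mir-84, mir-241, mir-793 to mir-795, the genes mir-51 to mir-56 with the overlapping mir-55b, and 1 further timing gene. This left 245 of 261 annotated microRNA genes on the 6 nuclear chromosomes. The rule itself used no binding value, but it was set with earlier results of these data known. The genes were 52 to 778 bp long with a median of 95 bp, and 2 were longer than 200 bp. Genes on the same strand within 1000 bp of each other were merged into loci, which gave 213 loci, 17 of them with several members and the largest with 7.

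The data were chromatin immunoprecipitation sequencing (ChIP-seq) peak lists from whole young adults of mixed sex at 65.5 hours. The strain, OP752, had the genotype unc-119(tm4063) and the transgene wgIs752, which carries somi-1::TY1::EGFP::3xFLAG and, as a rescuing copy, unc-119(+). The precipitating antibody was directed against the green fluorescent protein tag of the SOMI-1 fusion. Cultures had been synchronised by starving L1 larvae after bleaching, and there was 1 group with 2 biological replicates, without an untagged strain among the samples used here. DNA from all tissues was pooled, so the tissue in which a site was bound cannot be told apart.

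MicroRNAs are short RNAs that guide Argonaute proteins to messenger RNAs. Target choice rests largely on the seed, bases 2 to 8 of the mature strand, and genes whose products share a seed are grouped as a family. Their genes can stand alone, lie together in clusters that are transcribed as 1 precursor, or lie inside introns of protein-coding genes, either on the strand of the host gene or on the other strand. SOMI-1 is a zinc finger protein, found in this nematode through its effect when the timing microRNA mir-84 is made in excess. The annotated 5′ end of a microRNA gene is that of its hairpin precursor and not the place where transcription starts.

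Mature sequences of the families that the results turn on are given 5′ to 3′ with the seed in capitals, because genes that share a seed are described together. The first family is that of mir-58 and mir-80, microRNAs abundant in this nematode.
mir-80: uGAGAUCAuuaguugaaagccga
mir-81: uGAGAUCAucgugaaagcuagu
mir-82: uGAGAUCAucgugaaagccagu
mir-58b: aGAGAUCAaccauugagauccaa
mir-58c: aGAGAUCAggcaauagguucaaa
mir-58a: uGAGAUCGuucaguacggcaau

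The next group shares the seed AUGACAC and includes mir-229, mir-64 and mir-66 of a cluster on chromosome III and mir-63 on X.
mir-229: aAUGACACugguuaucuuuuccaucg
mir-64: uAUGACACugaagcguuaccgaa
mir-66: cAUGACACugauuagggauguga
mir-63: uAUGACACugaagcgaguuggaaa

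The mir-35 family, needed for embryonic development in this nematode, has the seed CACCGGG in all 8 members, of which the ends of its cluster and the separate mir-42 are shown. The seed GAUAUGU is shared by mir-90, mir-62 and mir-50.
mir-35: uCACCGGGuggaaacuagcagu
mir-41: uCACCGGGugaaaaaucaccua
mir-42: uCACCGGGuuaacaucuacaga
mir-90: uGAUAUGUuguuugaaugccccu
mir-62: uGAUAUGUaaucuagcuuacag

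The genomic sequence at 4 summits is given as well, because these are the strong peaks on chromosome III that lie outside the promoter windows of protein-coding genes. Each is a window of 61 bp of the ce11 assembly (WBcel235) on the plus strand, and the capital marks the summit base. They lie at chrIII:8865510-8865570 for mir-80, chrIII:2172063-2172123 for mir-229, chrIII:7278658-7278718 for mir-2214 and chrIII:8874369-8874429 for mir-90.
mir-80: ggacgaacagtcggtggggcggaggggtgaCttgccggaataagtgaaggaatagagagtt
mir-229: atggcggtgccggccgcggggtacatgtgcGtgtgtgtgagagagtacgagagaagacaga
mir-2214: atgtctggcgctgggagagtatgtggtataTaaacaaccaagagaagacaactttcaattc
mir-90: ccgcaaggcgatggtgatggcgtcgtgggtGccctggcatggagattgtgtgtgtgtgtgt

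The authors deposited 4 peak lists. The list of replicate 1 held 29600 peaks, that of replicate 2 held 26067, the joint list called on both held 26266, and 1667 peaks of the joint list passed an irreproducible discovery rate threshold (the thresholded list). Each peak has a summit, the position the authors gave as its highest point, and a signal value, the authors' own score without a stated unit. The joint list reached down to a signal of 28.5 and holds many weakly supported peaks. The authors' −log10 q-value was 1.43 at mir-87 (rank 2888 by signal), 0.197 at mir-1 (rank 11424) and 0.0495 at mir-235 (rank 20914). A joint summit alone is therefore not a confidently called binding site. A microRNA gene was counted as having a summit nearby when a summit lay inside it or within 500 bp of either end. Where a replicate's signal is given beside a joint one, it is that of the peak in the replicate's own list whose interval holds the joint summit.

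In the joint list 104 of the 245 microRNA genes had a summit within 500 bp (42.4%, Wilson 95% interval 36.4 to 48.7). Of all 46890 annotated nuclear genes, 38.8% had one. That pool includes 15363 piRNA genes with a median length of 21 bp, of which 12.5% had one. They lower its share, here and wherever all annotated genes are the background. Closeness to 38.8% therefore does not place the microRNA genes level with annotated genes of other kinds. Among genes of up to 200 bp other than the microRNA and piRNA genes (the other short genes) the share was 45.1%, and among those of them classed as ncRNA, without tRNA and snoRNA genes, it was 41.8%. Both lay inside the interval of the microRNA genes. It was 56.4% for protein-coding genes, 82.5% for tRNA genes and 12.5% for piRNA genes, which differ in length. Intervals here cover counting error only, and neighbouring microRNA genes share summits.

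Against random placement the count was higher. When a gene of the same length was set at every position of the same chromosome, a summit lay within 500 bp in 25.1% of positions, which would give 61.5 of 245 genes. Placement only within 50000 bp of each gene gave 24.7%. The other short genes, with a median length of 123 bp, were at 45.1%, so a share above placement was not seen for microRNA genes alone.

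The distance to the nearest joint summit had a median of 676 bp, against 1459 bp for placed genes. A summit lay inside the gene itself for 13 members, where placement gave 5.90. Within 200 bp there were 56 members against 30.1, within 1000 bp 139 against 98.4, and within 5000 bp 213 against 202. The counts were above placement at each of these limits, and the shares had drawn close by 5000 bp (86.9% against 82.4%). At the limit of 500 bp, mir-245, mir-269 and mir-242 fell just inside with summits at 485, 489 and 497 bp. The genes mir-44, mir-70 and mir-4815 fell just outside at 511, 514 and 520 bp. The most remote genes were mir-258.2 on X, mir-8199 on II and mir-258.1 on X, whose nearest summits were 30733, 28455 and 21317 bp away.

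**Figure D1:**
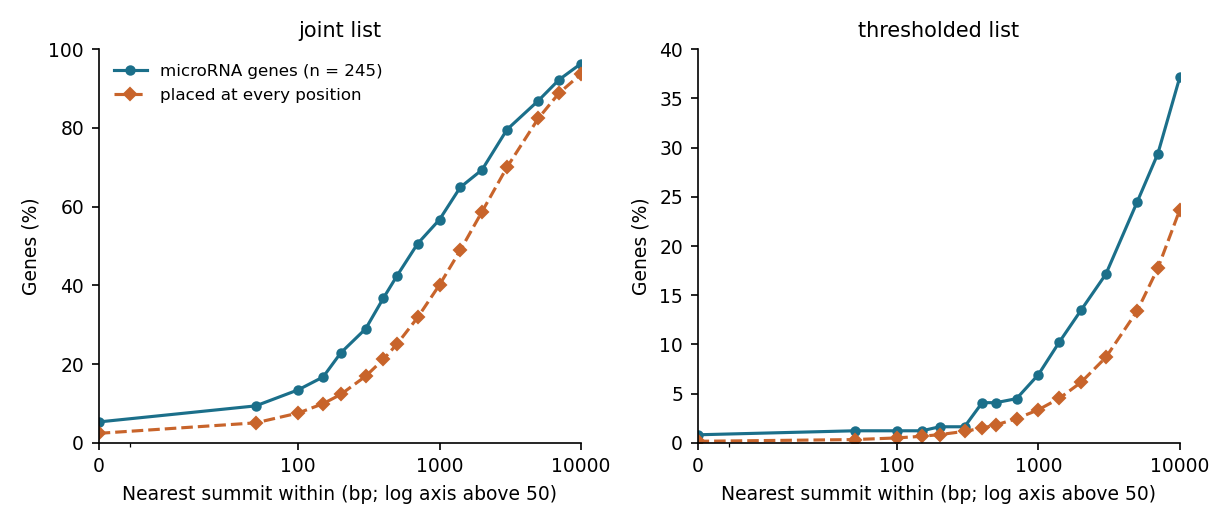
Share of the 245 microRNA genes (y axis, percent) whose nearest summit lies within the distance on the x axis (bp, logarithmic above 50), for the joint and the thresholded list, with the share of all positions of the same chromosome as a dashed line. In the joint list the members reached 42.4% at 500 bp where placement gave 25.1%.

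In the thresholded list 10 members had a summit within 500 bp (4.08%, 2.23 to 7.35), where placement gave 4.46 genes (1.82%). The background was 4.65% of all annotated genes, 9.71% of the other short genes and 7.16% of the short ncRNA genes. The share was near that of all annotated genes, which again include the piRNA genes (0.605%). The interval held the share of the short ncRNA genes but not that of all other short genes. Over all lengths, tRNA genes reached 33.0% and snoRNA genes 24.3%. The median distance to the nearest thresholded summit was 19861 bp, against 28061 bp for placed genes.

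The replicates' own lists gave nearly equal counts. Replicate 1 had a summit within 500 bp of 107 members (43.7%, background of all genes 42.7%) and replicate 2 of 103 (42.0%, background 39.3%). Both lists held a summit for 73 members (29.8%, 24.4 to 35.8), where placement gave 33.6 and 28.3% of all annotated genes had one. Only replicate 1 had a summit at 34 members and only replicate 2 at 30, which left 108 with none in either. The members with a summit in both were 68.2% of those of replicate 1 and 70.9% of those of replicate 2. Of the 104 members found in the joint list, 70 had a summit in both replicates, 28 in 1 of them and 6 in neither. The strongest joint summit itself lay inside a peak of both replicates for 62 of the 104, of replicate 1 alone for 20, of replicate 2 alone for 16 and of neither for 6.

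The 112 distinct joint summits within 500 bp had a median signal of 44.8 and a highest value of 209.9, while the whole joint list had a median of 39.4 and reached 841. Of the 112, 71 were among the 13133 joint peaks of highest signal. Near members the typical signal was thus above that of the list, while the strongest peaks of the list lay elsewhere. Over the 73 members found in both replicates, the strongest signals within 500 bp ran from 15.9 to 97.3 with a median of 28.4 in replicate 1 and from 16.5 to 111.9 with a median of 28.3 in replicate 2. Their Spearman rho between the replicates was 0.495 over these 73 members, some of which share a summit, and it is given as a description. The strongest summits of the replicates need not lie at the same place.

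The strongest peak near any member stood at mir-80 (WBGene00003308), an intergenic gene at chrIII:8865270-8865367 on the minus strand. Its signal was 209.9 in the joint list, 97.3 in replicate 1 and 111.9 in replicate 2, which made it the 231st of 26266 joint peaks. The summit lay 173 bp upstream of the hairpin, outside the promoter window of any protein-coding gene, which runs from 1000 bp upstream to 200 bp downstream of a 5′ end. The window printed for mir-80 shows its sequence.

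A further gene on the same chromosome, mir-90 (WBGene00003318, chrIII:8873987-8874084, minus strand), lay in an intron of K01F9.2 on the same strand. Its peak had a joint signal of 127 with the summit 315 bp upstream, with 38.8 in replicate 1 and 88.1 in replicate 2. The other genes with its seed had weaker peaks, since mir-62 in an intron of ugt-50 on X had a joint signal of 45.8 and mir-50 in an intron of tln-1 had 43.1. All 3 members of this seed family therefore had a joint summit within 500 bp, but only mir-90 had a thresholded one. All 3 lie in introns, where 45.9% of the other short genes had a joint summit, and so small a count was not tested.

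The gene mir-229 (WBGene00003322, chrIII:2172452-2172566, plus strand) opens a cluster in an intron of gcn-1, which encodes a translation regulator, on the same strand. Its peak had a signal of 151 in the joint list, 69.2 in replicate 1 and 86.7 in replicate 2, and lay 359 bp upstream. A weaker joint summit lay 141 bp from mir-229 and was also the nearest for mir-64 and mir-66 farther along the strand, at 537 and 797 bp. Over the mir-64 family this gave 1 of 4 members in the joint list, where placement gave 1.01 and 38.8% of all annotated genes had a summit. The related mir-63 on X had no joint summit within 500 bp.

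Another intronic gene, mir-2214 (WBGene00194828, chrIII:7278715-7278778, plus strand, in B0361.11), had a summit 27 bp upstream in the joint list and at the same distance in both replicates. Its signal was 137 in the joint list, 78.6 in replicate 1 and 55.4 in replicate 2. With mir-80, mir-90, mir-229 and mir-5549, chromosome III held 5 of the 10 members with a thresholded summit, among 27 members on that chromosome, where placement gave 0.543. Of the other short genes on III, 10.2% had a thresholded summit within 500 bp (8.36% of the short ncRNA genes), and the 5 members made 18.5% (8.18 to 36.7).

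For some of these genes the peak cannot be told apart from one at a protein-coding promoter. The summit at mir-5549 (WBGene00219220, signal 157, replicates 73.5 and 84.7) lay inside the hairpin and also in the promoter windows of eef-1A.1, a translation elongation factor gene, and rfc-4, a replication factor gene. The summit at mir-4929 (WBGene00219226, signal 184, replicates 97.0 and 93.0) lay 332 bp upstream in the promoter window of its host gene E01G4.3. The overlapping genes mir-8186-1 and mir-8186-2, on opposite strands near the left end of chromosome II, shared 1 summit with a signal of 99.3 in the promoter window of gmeb-1. At mir-8209 (signal 148, replicates 62.9 and 81.7), a gene of 262 bp on chromosome I, the summit lay inside the gene and outside such windows.

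The last of the thresholded members, mir-58a (WBGene00003286, chrIV:3233254-3233350, plus strand), lies in an intron of Y67D8A.2. Its signal was 93.1 in the joint list, 49.0 in replicate 1 and 50.1 in replicate 2, close to the lowest thresholded signal of 91.0. The thresholded summit lay downstream, 317 bp from the gene, and 2 weaker joint summits lay within 500 bp as well.

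**Figure D2:**
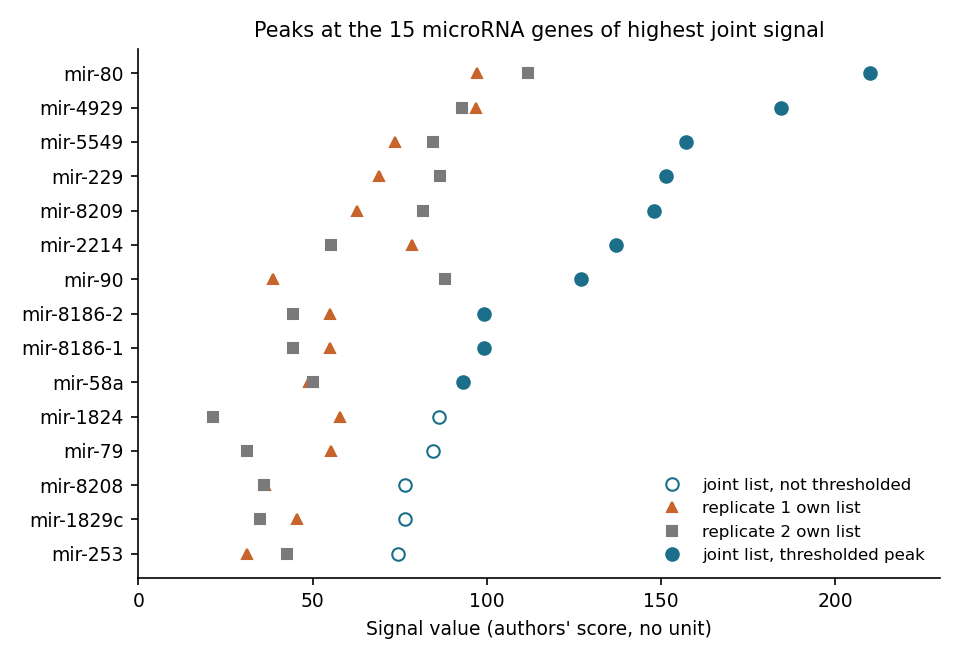
Signal value (x axis, the authors' score without a unit) of the strongest joint summit within 500 bp of the 15 microRNA genes of highest joint signal with a summit in both replicates (circles, filled where thresholded), and of the peak holding that position in each replicate's own list (triangles and squares). Joint signals run from 209.9 at mir-80 to 74.6 at mir-253.

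The mir-58 family is homologous to the bantam microRNA of Drosophila, and its members in this nematode act on signalling by transforming growth factor β relatives. Of its 4 members found by name, mir-80 and mir-58a had thresholded summits, beside 4.65% of all annotated genes and 9.71% of the other short genes. The other two, mir-81 and mir-82, lie in introns of the X-linked gene gid-2 and had nearest joint summits at 1445 and 1371 bp. Near mir-82 replicate 1 alone had a summit, inside the gene with a signal of 26.6. The seed GAGAUCA also occurs in mir-58b and mir-58c, neighbours on chromosome IV that shared a joint summit with a signal of 64.6 (28.0 in replicate 1 and 38.5 in replicate 2). It occurs as well in mir-2209a, whose joint signal was 31.4 with no summit in either replicate's list. In all, 4 of the 6 members with this seed had a joint summit, in 3 of 5 loci. Of all annotated genes 38.8% had one, and of the other short genes 45.1%. The gene mir-58a, which has the seed GAGAUCG, is counted apart.

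All 8 genes of the mir-35 family had a joint summit within 500 bp, but these are few peaks seen several times. The 7 genes mir-35 to mir-41 form a single cluster in an intron of Y62F5A.9 on the opposite strand, with 8 members in 2 loci for the family as a whole. Their strongest shared joint peak had a signal of 67.1 and stood at rank 3286 of the joint list. The peak of replicate 1 over that summit had a signal of 37.2, and replicate 2 had no peak over it. The strongest summits near these genes lay elsewhere in the cluster in the replicates, with signals of 41.8 in replicate 1 and 37.0 in replicate 2. Replicate 2 had no summit within 500 bp of mir-35 and mir-36, whose nearest one was 512 bp away. The separate mir-42 had a summit 299 bp upstream with a signal of 47.6, which mir-43 of the same cluster shared. None of the 8 had a thresholded summit. For the joint list placement gave 2.02, while 38.8% of all annotated genes and 45.1% of the other short genes had a summit. With 2 loci the family count is not comparable with these shares.

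The seed GGCAAGA occurs in 6 members at 5 loci, of which 5 members in 5 loci had a joint summit. Signals were 46.9 at mir-8188, 43.6 at mir-73, 43.3 at mir-8187, 33.6 at mir-266 and 31.0 at mir-72, where the summit lay inside the hairpin but neither replicate's list had one within 500 bp. The gene without a joint summit, mir-74, follows mir-73 in its cluster and had one 579 bp away. The 4 genes with the seed AGAGUGG, all of the mir-2217 group, had no joint summit within 500 bp. Of all annotated genes 38.8% had a joint summit within 500 bp, and of the other short genes 45.1%. The seed groups named were picked after their values were seen, and such small counts were not tested. Of 354 distinct seeds among 428 mature sequences, 14 occurred in 3 or more members.

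A list of 28 well studied microRNAs was described by the tissues and processes in which they are known in this nematode. In the joint list 14 of the 28 had a summit within 500 bp, where placement gave 6.96, and none had a thresholded one. The joint count was near the background, 38.8% of all annotated genes and 45.1% of the other short genes. Each replicate's list had 17 of them and 14 were in both.

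Several listed microRNAs are known from neurons, glia or the migration of neurons. The gene mir-124, which is expressed in sensory neurons, had a summit 134 bp upstream in an intron of trpa-1. Its signal was 72.6 (38.4 in replicate 1 and 29.0 in replicate 2). The glial mir-228 had a summit 41 bp upstream with a signal of 59.0 (16.8 and 37.3). The neuronal lsy-6, which sets the left-right difference of a pair of taste neurons, had a weak one with a signal of 34.1, in the promoter windows of 3 protein-coding genes. At mir-79, which affects neuronal migration and is not counted here as neuronal, the signal was 84.5 (55.4 and 31.3). It was the highest in this list, with the summit 295 bp upstream. Beside it, mir-87 reached 70.9 (27.1 and 44.9). The gene mir-273, proposed to act in the same taste neurons as lsy-6, had 55.1 (19.1 and 33.8).

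Of microRNAs known from muscle, stress and lifespan, mir-1, the muscle microRNA conserved across animals, had 2 joint summits, the stronger 177 bp upstream with a signal of 41.7 (32.7 in replicate 2 and no peak over it in replicate 1). In an intron of ppfr-1, mir-71, which promotes long life, had 3 with a highest signal of 46.4 (20.7 and 32.4). At mir-235, which holds larvae in arrest when food is absent, the summit lay inside the hairpin with a signal of 32.1 (26.2 in replicate 2 and no peak over it in replicate 1). These signals lay near the joint median of 39.4. The stress-related mir-239b had 63.3 (42.8 and 25.6), while its relative mir-239a had its nearest joint summit at 676 bp. For mir-34, which acts in the response to DNA damage, the joint list had none nearer than 581 bp, although replicate 1 had a summit 89 bp away (signal 25.9) and replicate 2 inside the gene (20.4). The joint list had none within 500 bp of mir-246 either, with the nearest at 3132 bp.

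Further members of the list with a joint summit were mir-45 with a signal of 57.1, mir-86 with 50.9, mir-243 with 39.6 and mir-67 with 38.0. Of these, mir-243 had none within 500 bp in replicate 1. Those without a joint summit within 500 bp included the intestinal mir-60 at 1090 bp and the pair mir-240 and mir-786 at 1629 and 1507 bp, of which mir-786 acts in the defecation rhythm. The others were mir-44 at 511 bp, mir-70 at 514, mir-250 at 876, mir-61 at 1019, mir-259 at 1152, mir-83 at 1435, mir-85 at 2316 and mir-247 at 6638. Replicate lists alone placed summits at mir-60 (replicate 2, signal 27.3), mir-247 (replicate 1, 19.3) and the mir-240 and mir-786 pair (replicate 1, 19.2).

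Peaks below the threshold but among the 15 strongest were found at 5 more genes. At mir-1824 the joint signal was 86.4, with 57.8 in replicate 1 and 21.4 in replicate 2, in the promoter windows of its host Y87G2A.18 and of Y87G2A.1. At mir-8208 it was 76.7 (36.4 and 35.9), in the promoter window of T11G6.3, and at mir-253 it was 74.6 (31.2 and 42.8), in that of its host F44E7.5. These summits are therefore also at protein-coding promoters. At mir-1829c, inside an intron of piki-1 on X, the summit lay in the hairpin with a signal of 76.7 (45.6 and 35.0). This gene is 1 of 9 members within 500 bp of a tRNA, snoRNA or snRNA gene, and the part of that neighbour in the peak was not tested. The fifth of these genes was mir-79.

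Members were next compared by their setting. Of 49 clustered genes, 26 had a joint summit within 500 bp (53.1%, 39.4 to 66.3, placement 26.2%), which came from 12 of 17 loci. Of the 196 genes outside clusters, 78 had one (39.8%, 33.2 to 46.8, placement 24.8%). In the thresholded list clustered genes had 1 of 49, mir-229 (2.04%), and the others 9 of 196 (4.59%), beside 4.65% of all annotated genes. In the joint list 38.8% of all annotated genes and 45.1% of the other short genes lay inside the interval of the unclustered genes, and the latter also inside that of the clustered ones. The intervals of the clustered and other genes overlapped in the joint list, and the difference was not tested.

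Intronic genes were 92, of which 48 had a joint summit (52.2%, 42.1 to 62.1). Placement gave 24.4% over the whole chromosome and 22.6% over introns alone, and 45.9% of other short intronic genes had one, or 41.0% of the short intronic ncRNA genes. The former share lay inside the interval and the latter just below it. Without the clustered genes, which share summits, 36 of 76 intronic genes had one (47.4%, 36.5 to 58.4), and that interval held both shares. Genes on the strand of their host had 33 of 65 and those on the opposite strand 15 of 27. The latter include mir-35 to mir-41, and by locus the counts were 33 of 61 and 8 of 20. In the thresholded list 5 of the 92 had a summit (5.43%, 2.34 to 12.1). Other short intronic genes were at 9.11% there and the short intronic ncRNA genes at 5.78%. All 5 lay on the strand of their host, as did 65 of the 92. For the 27 on the opposite strand placement gave only 0.448, so the strands cannot be compared by this count. Intergenic genes were 142, of which 51 had a joint summit (35.9%, 28.5 to 44.1), where placement gave 25.6% over the chromosome and 23.7% outside protein-coding genes. Other short intergenic genes reached 46.7%, above that interval, and the short ncRNA genes among them 43.4%, inside it. The remaining 11 members overlapped exons of protein-coding genes, and 5 of them had a joint summit (45.5%, 21.3 to 72.0, placement 23.8%). Of the other short genes that overlap exons 36.1% had one, and of the short ncRNA genes among them 36.4%, both inside that wide interval.

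**Figure D3:**
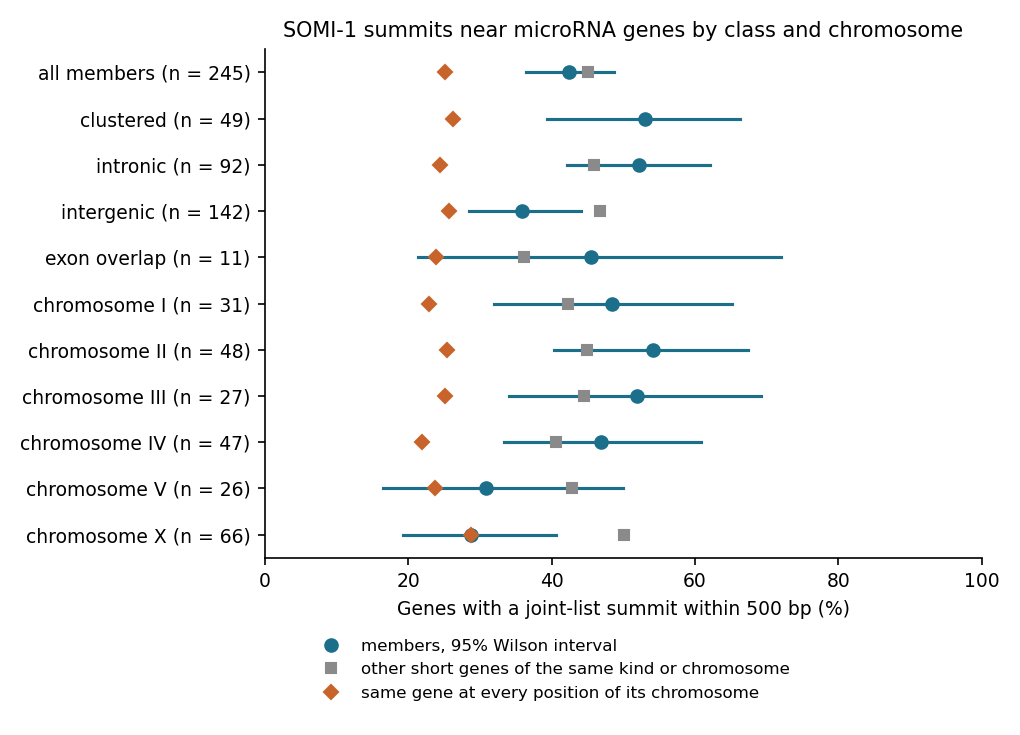
Share of microRNA genes with a joint summit within 500 bp (x axis, percent, points with 95% Wilson intervals) by class and chromosome, with the share of other genes of up to 200 bp (squares) and of all positions on the chromosome (diamonds). Intronic genes stood at 52.2% and intergenic at 35.9%, and on X the members were at the level of placement.

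The members were also split by chromosome, after the values were seen, and differences between chromosomes were not tested. On X 19 of 66 members had a joint summit (28.8%, 19.3 to 40.6), equal to the 28.8% of placement there, while 50.02% of other short genes on X and 45.2% of the short ncRNA genes there had one. On the autosomes 85 of 179 had one (47.5%, 40.3 to 54.8), with 23.7% by placement, 43.0% among other short genes and 40.2% among short ncRNA genes. The shares were 54.2% on II, 51.9% on III, 48.4% on I, 46.8% on IV and 30.8% on V, where 8 of 26 members had a joint summit. None of the 66 X-linked members had a thresholded summit within 500 bp (0%, upper bound 5.50%), where placement gave 1.62 genes and 12.3% of other short X-linked genes and 8.19% of the short ncRNA genes among them had one.

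The replicates' own lists placed the X-linked members somewhat higher, at 26 of 66 in replicate 1 (placement 32.0%, members 39.4%) and 21 of 66 in replicate 2 (placement 28.3%, members 31.8%). Clustered genes on the autosomes had a joint summit in 20 of 27 cases (placement 24.2%) at 9 loci, 8 of which had one. Those on X had one in 6 of 22 cases (placement 28.5%) at 8 loci, 4 of which had one. Of the other short genes, 43.0% on the autosomes and 50.02% on X had one. The autosomal cases include mir-35 to mir-41, which share summits. Within the autosomes, 39 of 81 members in the middle 50% of each chromosome had a summit (48.1%, placement over the whole chromosome 23.5%). In the outer parts 46 of 98 had one (46.9%, placement over the whole chromosome 23.9%). Both placements cover whole chromosomes, so they do not compare the middle with the outer parts. Placement only within 50000 bp of each gene would give 22.9 of the 81 middle members and 19.6 of the 98 outer ones.

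Summits lay on both sides of the hairpins. For the 104 members the strongest joint summit within 500 bp was upstream of the 5′ end for 55, inside the gene for 11 and downstream for 38. Around the 213 loci, 27 joint summits lay in each of the 2 bins of 250 bp upstream of the 5′ end, and 22 and 25 in those downstream, where an even spread would give 14.1. Farther out counts per bin went from 10 to 25. A single summit was near most of the genes found, since 81 members had 1 summit within 500 bp, 19 had 2 and 4 had 3.

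**Figure D4:**
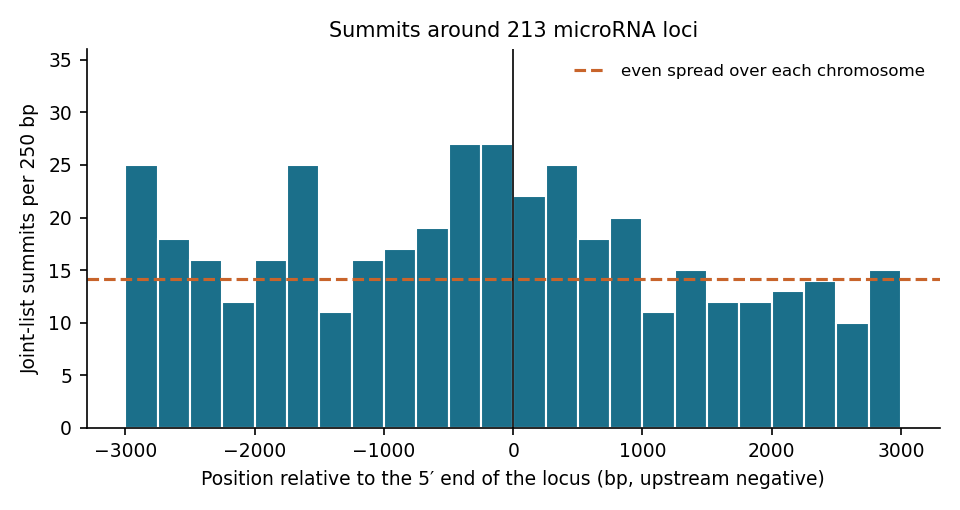
Number of joint summits per 250 bp (y axis) against the position relative to the 5′ end of 213 microRNA loci (x axis, bp, upstream negative), with the number under an even spread along each chromosome as a dashed line. The 4 bins nearest the 5′ end held 22 to 27 summits, against 14.1 for an even spread.

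Promoter windows of protein-coding genes held 36 of the 112 distinct joint summits near members (32.1%), close to the 31.4% of the whole joint list. In the thresholded list 3 of 10 lay there, against 45.1% of that list. The members themselves touched such a window in 68 of 245 cases, where placement gave 27.2%. The proximity of these summits to microRNA genes and to protein-coding promoters cannot be told apart for these cases.

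A 6-base word, GACGCA on either strand, had been seen in excess in an earlier look at these summits and was searched for in the 101 bp around each summit. It occurred at 4 of the 112 distinct joint summits near members (3.57%) and at 4.10% of all joint summits. Of all windows of this length in the nuclear genome, 2.03% held it. Among the thresholded summits near members 1 of 10 had the word, against 12.4% of the thresholded list, and none of the 4 windows printed above holds it.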

How the data were processed

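Peak lists of SOMI-1-eGFP ChIP-seq were used for 2 biological replicates of 1 group, with coordinates of ce11 per the labels. The authors called peaks per replicate and jointly, against a control alignment not analysed here, and thresholded the joint list by irreproducible discovery rate, per the text files that came with the samples. Neither aligner nor peak caller, nor settings or read depth, is given in the sources used. Signal values were deposited by the authors with no stated unit and ranked within a list. Signals of different lists are given side by side and need not share a scale. The −log10 q-values, as deposited by the authors, entered no comparison.

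Genes came from Ensembl release 115 and mature sequences and summit windows from the RefSeq copy of WBcel235, in which all 245 members were matched and 244 had a mature sequence. Ensembl symbols are given without the prefix cel-. Placement is the exact share of all positions on the member's chromosome, or in introns or outside protein-coding genes, at which a gene of its length has a summit within 500 bp. The distance and placement code was tested on simulated summits. No test was run, since there is 1 group. Named are all members with a thresholded summit, the 15 of highest joint signal found in both replicates, and 4 lists (mir-35 family, mir-58 family with mir-1834, which no member matched, mir-64 family, well studied), of which 1 member is not reported here. Other genes named share a seed or a cluster with these, belong to further seed groups of 3 or more members, lie next to the limit of 500 bp or are the most remote, and were chosen after their values were seen. The members, lists and word were chosen with earlier results of these data known. Alternatives were other windows, lists, loci and member sets. Python 3.11.15, numpy 2.4.6, scipy 1.17.1 and matplotlib 3.10.9 were used.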

Additional observations from a re-analysis of the deposited data

How the results depend on the processing

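Counts followed the window. Within 200 bp, 56 members had a joint summit in place of 104, 4 a thresholded one in place of 10, and 31 one in both replicates in place of 73. Clustered, intronic and intergenic members then numbered 17, 27 and 26, in place of 26, 48 and 51. Within 1000 bp, 17 members had a thresholded summit and 112 one in both replicates. Without summits in promoter windows of protein-coding genes, 69 members had a joint and 6 a thresholded summit. In the joint peaks above the median signal, the median distance was 2059 bp in place of 676. Among the 121 members numbered below 1000, a set chosen after the values were seen, 59 had a joint and 4 a thresholded summit. In place of the joint list, the own list of 1 replicate gave counts from 103 to 107 and median distances from 661 to 749 bp. The clustered count then ran from 21 to 25 and the intronic count from 40 to 49. The intergenic count was 54 in each case. These are the replicates' own lists, and no joint list was remade without a replicate. Of all 38 alternative values, 25 stayed within 1.5 times the reported value, among them those of the replicates' own lists. Of the alternative and reported counts, the 35 with a placement expectation were above it, which does not hold for the X-linked members or the mir-64 family. No paired analysis was possible because there was 1 group. The read depth is unknown, so how depth limits a missing summit cannot be given.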
